A study of Mus musculus with 6 samples.

Results

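The mouse mitochondrial genome is a small circular DNA that encodes 37 genes, and all 37 were present in the deposited table of 41064 genes, where they were taken as every gene whose symbol starts with mt-. They comprise 13 mRNAs, 2 rRNAs and 22 tRNAs, all on chromosome MT, and the coordinates of 37 of 37 equalled those in GENCODE M21 (GRCm38). The libraries came from the aorta of mice labelled JOSD2 KO (n = 3) and of mice labelled WT (n = 3), and both groups had received angiotensin II (Ang II), a peptide hormone that constricts vessels and raises blood pressure. The title of the series concerns JOSD2, a deubiquitinase, and the TGF-beta inhibitor SMAD7. Neither the strain, the age, the dose nor the deleted part of Josd2 is given in the labels, and no label ties a library to one animal, so p-values measure only the spread between these libraries, which may be technical. Without a given strain or substrain, a difference in strain and the deletion of Josd2 cannot be told apart in any value below.

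Mitochondrial DNA is transcribed from both strands by the polymerase POLRMT with the factors TFAM and TFB2M, as long precursors in which tRNAs stand between most mRNAs and rRNAs. Cutting at the tRNAs releases the single RNAs, and the rRNAs and most of the mRNAs are then given a tail of adenines. The mRNAs encode subunits of complexes I, III, IV and V of oxidative phosphorylation, while every other protein of mitochondria comes from the nucleus.

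The sequences below are those of the mitochondrial genes on which the comparisons within this genome turn, taken from GENCODE M21 (GRCm38) on the strand of the gene, 5′ to 3′. In each tRNA the capitals mark the anticodon. For mt-Nd3 the first 60 bases are given, with the start codon in capitals. The glycine tRNA mt-Tg (chrMT:9391-9458), mt-Nd3 (chrMT:9459-9806) and the arginine tRNA mt-Tr (chrMT:9808-9875) are neighbours on the plus strand and were the genes with the largest losses. The threonine tRNA mt-Tt (chrMT:15289-15355, plus strand) and the proline tRNA mt-Tp (chrMT:15356-15422, minus strand) had gains relative to the mitochondrial total. The serine tRNA mt-Ts1 (chrMT:6870-6938, minus strand) and the glutamate tRNA mt-Te (chrMT:14071-14139, minus strand) were the most abundant tRNA genes.
mt-Tg: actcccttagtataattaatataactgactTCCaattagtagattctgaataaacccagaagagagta
mt-Nd3: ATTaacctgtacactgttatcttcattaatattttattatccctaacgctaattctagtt
mt-Tr: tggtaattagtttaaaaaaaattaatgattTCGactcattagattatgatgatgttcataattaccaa
mt-Tt: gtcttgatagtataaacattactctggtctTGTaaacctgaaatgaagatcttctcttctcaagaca
mt-Tp: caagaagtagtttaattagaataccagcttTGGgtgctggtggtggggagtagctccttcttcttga
mt-Ts1: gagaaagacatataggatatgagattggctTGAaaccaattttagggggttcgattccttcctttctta
mt-Te: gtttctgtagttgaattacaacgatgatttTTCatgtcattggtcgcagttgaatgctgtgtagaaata
The start codon of mt-Nd3 in the reference is ATT, one of 4 starts other than ATG among the 13 mRNAs. The stop codon is complete in 10 of the mRNAs, and in mt-Co3, mt-Nd4 and mt-Cytb the gene ends with a single T that the tail of adenines completes to a stop.

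Total counts were 63612353 to 75886761 per library, which is read as about 4 counts per read pair. Mitochondrial genes took 16661772 to 18103769 of these counts in libraries labelled JOSD2 KO and 23033596 to 26840823 in WT libraries. Josd2 itself had 1742, 1737 and 1780 counts in libraries labelled JOSD2 KO and 1649, 1762 and 1890 in WT libraries. On the TMM scale, which sets most genes to equal levels, Josd2 stood at 21.0 ± 0.947 CPM in libraries labelled JOSD2 KO and 30.1 ± 0.837 CPM in WT (counts scaled to a common library size; SD, n = 3 each), with a log2 fold change of -0.52 (edgeR quasi-likelihood test, adjusted p = 0.000244). With library totals in place of TMM it stood at -0.11 (adjusted p = 0.231). The labels do not say which part of the gene was deleted, and the groups are called by their labels. The smooth muscle markers Myh11, Acta2 and Tagln were abundant in all 6 libraries, as they are in aorta, and the summed level of the 8 smooth muscle markers was 19880 to 20000 CPM in libraries labelled JOSD2 KO and 20600 to 20760 CPM in WT. The 8 were mixed: on the TMM scale 4 were higher (edgeR adjusted p under 0.05) and 2 lower, Acta2 (-0.30) and Des (-2.19). Of all tested genes, 13.2% were higher and 11.5% lower. With library totals 7 of the 8 were higher and 1 lower, where 46.8% of all tested genes were higher and 3.81% lower.

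Mitochondrially encoded RNA made up a smaller share of the libraries labelled JOSD2 KO. It took 23.9%, 23.9% and 23.8% of all counts there, against 36.2%, 36.2% and 36.2% in WT libraries, a ratio of 0.659. The groups did not overlap, and the SD within a group was 0.0274 percentage points in libraries labelled JOSD2 KO and 0.0282 in WT (n = 3 each). An exact permutation test over the 6 libraries gave a two-sided p of 0.1, the smallest that 3 against 3 allows. The 13 mRNAs held 23.4% of all counts in libraries labelled JOSD2 KO and 35.5% in WT, and the 2 rRNAs held 0.366% in libraries labelled JOSD2 KO and 0.627% in WT. The 22 tRNAs held 0.0839% in libraries labelled JOSD2 KO and 0.104% in WT, although as a share of summed FPKM, which weights short genes up, the order of the tRNAs was the other way, with 2.19% in libraries labelled JOSD2 KO and 2.15% in WT. In bulk tissue, fewer cells of a type, fewer mitochondria per cell and less RNA per mitochondrion cannot be told apart.

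**Figure D1:**
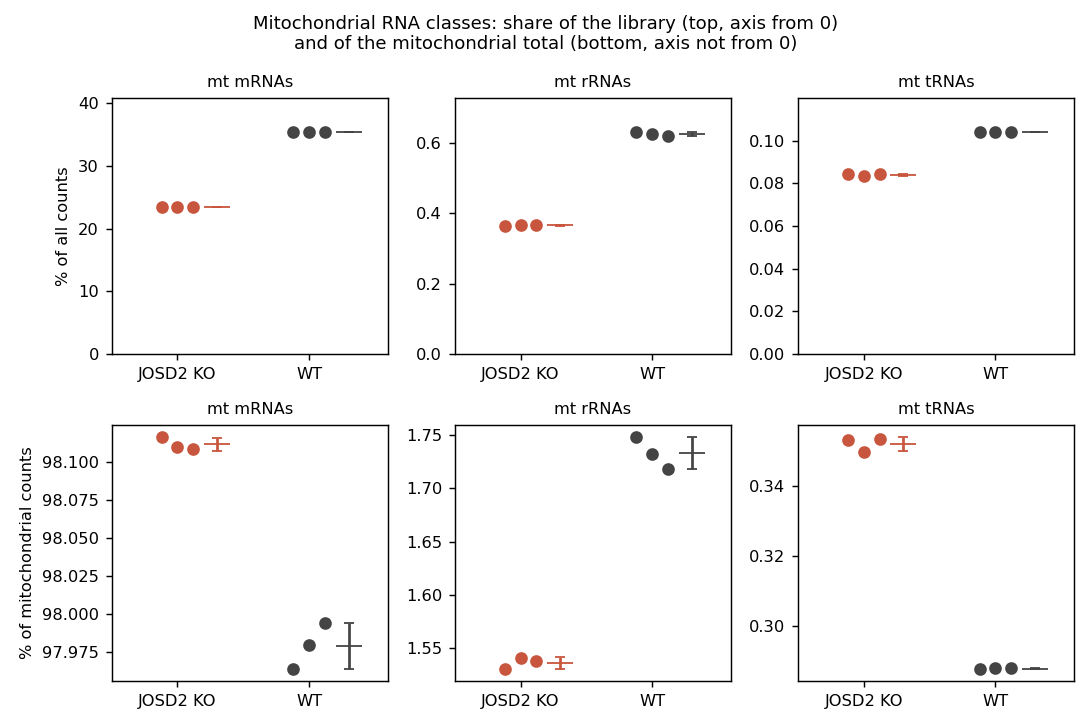
Share of all counts (top row, axis from 0) and of mitochondrial counts (bottom row, axis not from 0) held by mitochondrial mRNAs, rRNAs and tRNAs in each library, with JOSD2 KO on the left and WT on the right of each panel; points are libraries, and the dash with bars is the mean ± SD (n = 3). Each class is lower in libraries labelled JOSD2 KO in the top row, whereas in the bottom row the tRNAs stand at 0.352% in libraries labelled JOSD2 KO and 0.288% in WT, and the rRNAs at 1.54% in libraries labelled JOSD2 KO and 1.73% in WT.

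Every mitochondrial mRNA and both rRNAs fell in the libraries labelled JOSD2 KO when TMM scaled the libraries. All 13 mRNAs passed the test (edgeR quasi-likelihood test, Benjamini-Hochberg adjusted p under 0.05 over 20132 genes), with a median log2 fold change of -1.02 and a range of -1.40 (mt-Nd3) to -0.80 (mt-Nd5). Of all 20132 tested genes, 11.5% were called lower and 24.7% were called in either direction, and their median was -0.0031. Both rRNAs were called lower too, and with library totals, which move the median of all genes by 0.41, the 13 mRNAs and both rRNAs stayed lower, the mRNAs at a median of -0.61. All 37 mitochondrial genes passed the filter on low counts.

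The rRNAs, the RNA core of the mitochondrial ribosome, were among the RNAs with the larger decreases. The small-subunit rRNA mt-Rnr1 (chrMT:70-1024) had 1134, 1148 and 1141 FPKM (fragments per kilobase of gene length, scaled to the library total) in libraries labelled JOSD2 KO, against 2082, 2085 and 2030 FPKM in WT. The large-subunit rRNA mt-Rnr2 (chrMT:1094-2675) had 1270, 1274 and 1272 FPKM in libraries labelled JOSD2 KO, against 2133, 2097 and 2104 FPKM in WT. Groups stood apart for both genes, with log2 fold changes on the TMM scale of -1.27 (SE 0.01, adjusted p = 7.99e-14) for mt-Rnr1 and -1.14 (SE 0.01, adjusted p = 3.93e-15) for mt-Rnr2 by the edgeR test.

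Complex I, the NADH dehydrogenase, has 7 mitochondrial subunits. The mRNA of its core subunit mt-Nd1 (chrMT:2751-3707) had 14231, 14215 and 14109 FPKM in libraries labelled JOSD2 KO, against 22907, 22593 and 22465 FPKM in WT. Its log2 fold change was -1.08 (SE 0.01, adjusted p = 1.16e-15, edgeR), close to the median of the mRNAs. The mRNA of another subunit, mt-Nd6 (chrMT:13552-14070), is the one mRNA read from the minus strand. It had 8529, 8819 and 8758 FPKM in libraries labelled JOSD2 KO, against 10938, 11447 and 11859 FPKM in WT, with a log2 fold change of -0.80 (SE 0.02, adjusted p = 7.70e-10, edgeR). The decrease of mt-Nd6 was thus among the smallest of the mRNAs, next to that of mt-Nd5 on the other strand, whose 3′ end overlaps mt-Nd6 by 14 bases. No source used here says whether counting used the strand, so reads of such overlapping or opposite genes may be shared.

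Complex III holds a single mitochondrial subunit, cytochrome b. Its mRNA mt-Cytb (chrMT:14145-15288) had 21174, 21260 and 21121 FPKM in libraries labelled JOSD2 KO, against 32321, 32172 and 32305 FPKM in WT. The catalytic subunit of complex IV, cytochrome c oxidase, is encoded by mt-Co1 (chrMT:5328-6872), which ranked first of all genes in the table by mean FPKM. It had 45728, 45639 and 45907 FPKM in libraries labelled JOSD2 KO, against 69085, 68981 and 68762 FPKM in WT. The groups of both genes stood apart, with log2 fold changes on the TMM scale of -1.02 for mt-Cytb (SE 0.0033, adjusted p = 2.64e-18) and -1.0 for mt-Co1 (SE 0.0022, adjusted p = 1.08e-19) in the edgeR test.

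For complex V, the ATP synthase, the subunit of the proton channel is encoded by mt-Atp6 (chrMT:7927-8607). Its mRNA had 18227, 18051 and 17874 FPKM in libraries labelled JOSD2 KO, against 28647, 28874 and 29218 FPKM in WT, and fell with a log2 fold change of -1.09 (SE 0.01, adjusted p = 3.21e-15, edgeR). The neighbouring mt-Atp8, which overlaps mt-Atp6 by 43 bases and encodes a small membrane subunit, had 14994 ± 288 FPKM in libraries labelled JOSD2 KO and 21343 ± 376 FPKM in WT (SD, n = 3 each). Its decrease was smaller, at -0.92. By FPKM the groups stood apart in all 13 mRNAs and both rRNAs, each lower in libraries labelled JOSD2 KO. Of all tested genes, 59.4% stood apart by FPKM, and 6.15% did so with the lower values in libraries labelled JOSD2 KO.

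**Figure D2:**
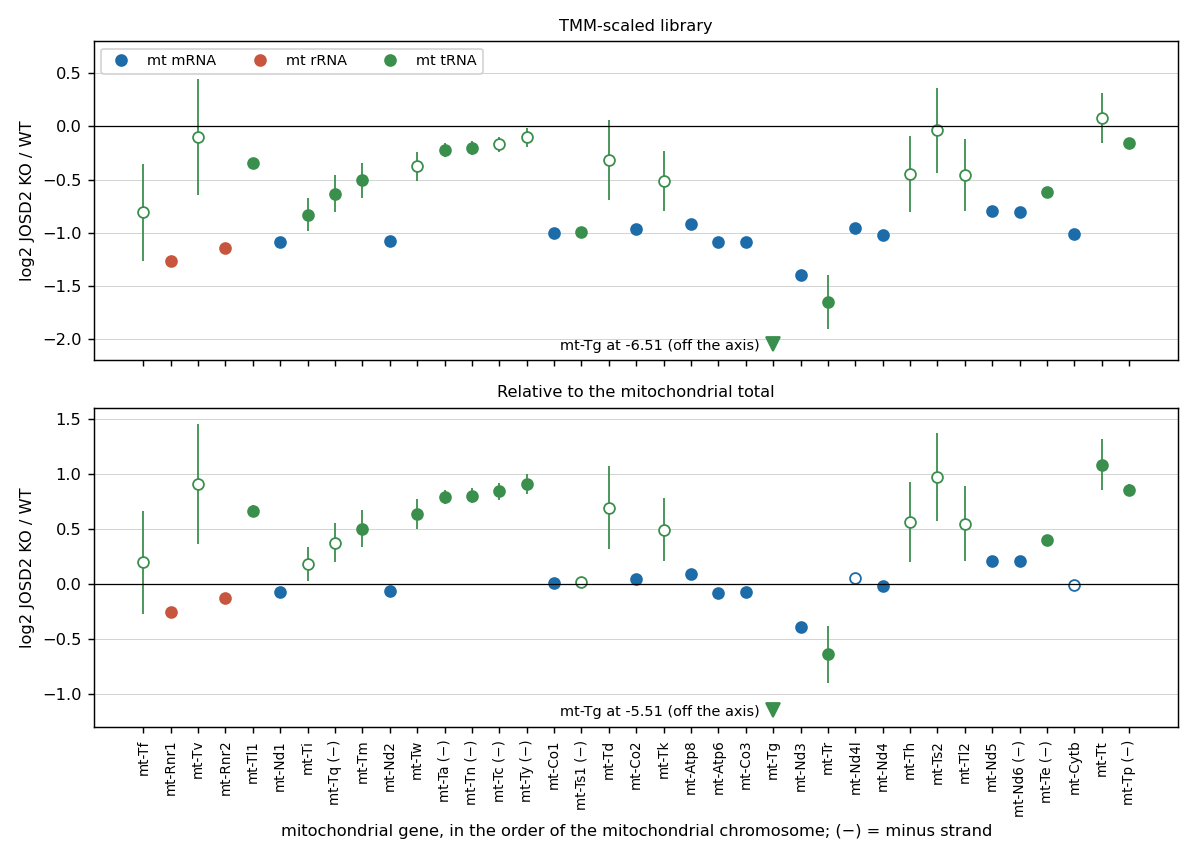
Log2 fold change, JOSD2 KO over WT, of the 37 mitochondrial genes in the order of the chromosome, on the TMM-scaled library (top) and relative to the mitochondrial total (bottom); bars are standard errors, filled points passed an edgeR adjusted p of 0.05 and open points did not. The mRNAs and rRNAs lie near -1 in the top panel and near 0 in the bottom panel, most tRNAs lie above them in both, and mt-Tg lies off both axes at -6.51 and -5.51.

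The tRNAs were less uniform than the mRNAs. On the TMM scale 11 of the 22 tRNAs were called lower, none higher, and 11 did not pass, with a median log2 fold change of -0.41, where 11.5% of all tested genes were lower. With library totals 5 were higher and 5 lower at a median of -0.0017, where 46.8% of all tested genes were higher and 3.81% lower, with a median of 0.41. The 11 lower ones carry leucine (mt-Tl1), isoleucine (mt-Ti), glutamine (mt-Tq), methionine (mt-Tm), alanine (mt-Ta), asparagine (mt-Tn), serine (mt-Ts1), glycine (mt-Tg), arginine (mt-Tr), glutamate (mt-Te) and proline (mt-Tp), and with library totals the sign turned to higher for mt-Tl1, mt-Ta, mt-Tn and mt-Tp. The count of 11 fell to 6 without JOSD2 KO replicate 1 and to 7 without JOSD2 KO replicate 2, JOSD2 KO replicate 3 or WT replicate 3. Counts were lower than for mRNAs: the mean count reached 200 in 12 tRNAs, of which 9 were called lower, and was under 200 in 10, of which 2 were called lower. By FPKM, 7 tRNAs were higher without overlap of the groups, 6 were lower without overlap and 9 overlapped. Of all tested genes, 53.2% were higher and 6.15% lower without overlap.

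Expressed relative to the mitochondrial total, the classes could be compared with one another. In this fit the library size was the summed count of the 37 genes, so that a log2 fold change of 0 means the same change as that sum, and the median of all tested genes stood at 1.01. As shares of the mitochondrial total, mRNAs took 98.1% in libraries labelled JOSD2 KO and 98.0% in WT, rRNAs took 1.54% in libraries labelled JOSD2 KO and 1.73% in WT, and tRNAs took 0.352% in libraries labelled JOSD2 KO and 0.288% in WT. Each of these class shares stood apart between the groups, with an exact two-sided permutation p of 0.1. The mRNA share turned the other way by summed FPKM, with 94.0% in libraries labelled JOSD2 KO and 94.7% in WT.

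The mRNAs stayed close to their mutual proportions, apart from mt-Nd3, mt-Nd5 and mt-Nd6. Relative to the mitochondrial total, edgeR called 5 mRNAs higher and 6 lower, and 2 did not pass, where 67.4% of all tested genes were called higher and 1.42% lower. The groups stood apart in 10 mRNAs by this share, 5 higher and 5 lower, where 74.2% of all tested genes stood apart, 71.9% higher and 2.24% lower. Most of these differences were a few percent, as with mt-Co1, which took 35.01% of mitochondrial counts in libraries labelled JOSD2 KO and 34.74% in WT, and its log2 fold change was 0.01. The libraries of a group lay close together, with a median coefficient of variation of 0.617% in libraries labelled JOSD2 KO and 1.02% in WT over the 15 genes above 100000 counts. The largest gains were those of mt-Nd5 (0.21, adjusted p = 7.44e-09) and mt-Nd6 (0.21, adjusted p = 7.59e-06), both subunits of complex I, by edgeR. In mt-Nd6 the share was 2.19%, 2.27% and 2.25% in libraries labelled JOSD2 KO, against 1.85%, 1.94% and 2.01% in WT, with no overlap. The largest loss was that of mt-Nd3, a further subunit of complex I, at -0.39 (adjusted p = 7.08e-09).

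Summed by complex, the mRNAs of complex I took 28.6% of mitochondrial counts in libraries labelled JOSD2 KO and 28.4% in WT (exact p = 0.2), and those of complex IV took 49.9% in libraries labelled JOSD2 KO and 49.7% in WT (exact p = 0.4). Both sums overlapped between the groups, as did mt-Cytb of complex III, with 12.002% in libraries labelled JOSD2 KO and 12.040% in WT. Complex V stood apart, with 7.60% in libraries labelled JOSD2 KO and 7.84% in WT (exact p = 0.1). The 9 genes of the minus strand, mt-Nd6 and 8 tRNAs, together took 2.56% in libraries labelled JOSD2 KO and 2.20% in WT, also without overlap, and mt-Nd6 held most of that sum.

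Both rRNAs were lower relative to the mitochondrial total. The share of mt-Rnr1 was 0.536%, 0.543% and 0.540% in libraries labelled JOSD2 KO, against 0.648%, 0.650% and 0.632% in WT, a log2 fold change of -0.25 (adjusted p = 1.18e-08, edgeR). The share of mt-Rnr2 was 0.994%, 0.998% and 0.997% in libraries labelled JOSD2 KO, against 1.10%, 1.08% and 1.09% in WT, at -0.13 (adjusted p = 1.02e-07, edgeR). The WT libraries were higher than every library labelled JOSD2 KO for both rRNAs.

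Among the tRNAs, 10 were called higher relative to the mitochondrial total, 2 lower, and 10 did not pass, where 67.4% of all tested genes were higher and 1.42% lower. Their median log2 fold change was 0.60, between the -0.0045 of the mRNAs and the 1.01 of all tested genes. The proline tRNA mt-Tp had 315, 331 and 347 mitochondrial CPM (CPM with the mitochondrial total as the library) in libraries labelled JOSD2 KO, against 189, 184 and 177 in WT, at 0.85 (SE 0.05, adjusted p = 4.04e-08, edgeR). For the asparagine tRNA mt-Tn the same measure was 129, 125 and 124 in libraries labelled JOSD2 KO, against 68.5, 73.0 and 74.8 in WT, at 0.80 (SE 0.07, adjusted p = 6.41e-07, edgeR). The leucine tRNA mt-Tl1, which follows mt-Rnr2 directly, had 221, 232 and 217 in libraries labelled JOSD2 KO, against 143, 138 and 142 in WT, at 0.66 (SE 0.05, adjusted p = 3.24e-07, edgeR). In these 3 genes every library labelled JOSD2 KO lay above every WT library, as in 18 of the 22 tRNAs and in 71.9% of all tested genes, and in 2 tRNAs it lay below. Of the 8 tRNAs on the minus strand 6 were called higher and none lower, with a median of 0.80, and of the 14 on the plus strand 4 were higher and 2 lower, with a median of 0.56, a difference between strands that was not tested. The threonine tRNA mt-Tt had the highest log2 fold change, 1.09 (SE 0.24, adjusted p = 0.00149, edgeR), on only 175 to 181 counts per library labelled JOSD2 KO and 111 to 126 in WT.

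**Figure D3:**
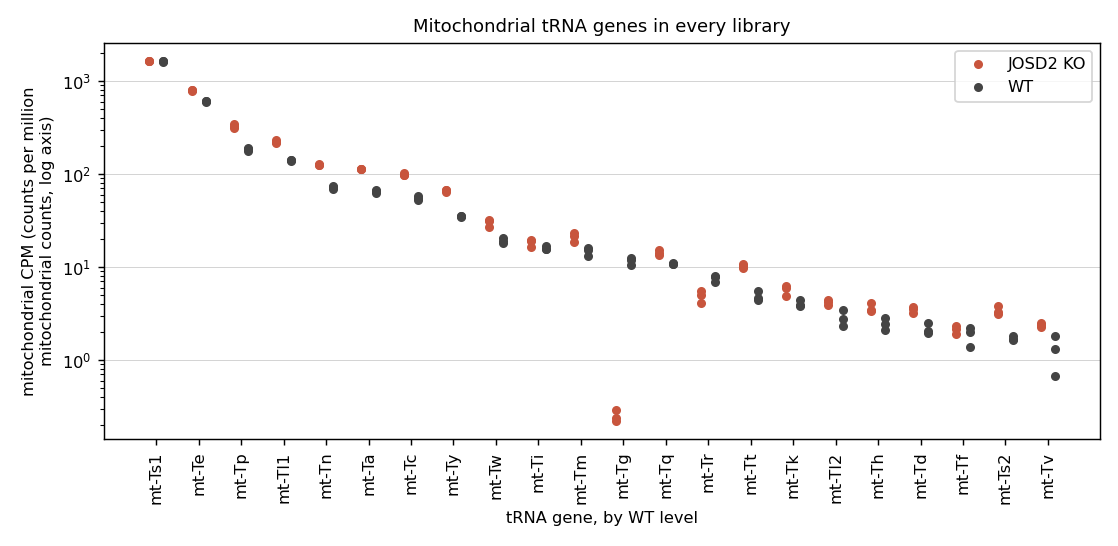
Level of the 22 tRNA genes in every library, as mitochondrial CPM (counts scaled to the mitochondrial total, log axis), ordered by WT level, with JOSD2 KO points left of WT points for each gene. Most tRNAs stand higher in libraries labelled JOSD2 KO, mt-Ts1 stands nearly level, and mt-Tg and mt-Tr stand lower.

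The tRNAs mt-Ts1 and mt-Te held 69.2% of the tRNA counts in libraries labelled JOSD2 KO and 77.3% in WT. The serine tRNA mt-Ts1 had 1656, 1626 and 1647 mitochondrial CPM in libraries labelled JOSD2 KO, against 1625, 1624 and 1620 in WT, and did not pass (log2 fold change 0.02, adjusted p = 0.423, edgeR). It lies on the strand opposite mt-Co1, overlaps its end by 3 bases, and changed on the TMM scale by nearly the same amount, -0.99 beside -1.0. The glutamate tRNA mt-Te, which borders mt-Nd6, had 802, 778 and 797 in libraries labelled JOSD2 KO, against 598, 604 and 603 in WT, and was called higher at 0.40 (SE 0.03, adjusted p = 1.57e-07, edgeR). Without these 2 tRNAs, the tRNA share of the mitochondrial total was 0.108% in libraries labelled JOSD2 KO and 0.0654% in WT, with no overlap. The tRNA genes are 59 to 75 bases long and the labels give a mean insert of 300 bases, so an average read pair counted for a tRNA reaches into its neighbours, and mature tRNA and precursor cannot be told apart.

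Mature tRNAs have no tail of adenines, and the protocol in the labels, which describes selection of polyadenylated RNA, names both tailed and untailed fractions. Of the RNAs without such a tail listed for this comparison, 4 were tested and 2 rose, the signal recognition particle RNAs Rn7s1 (log2 fold change 2.20, adjusted p = 4.77e-07) and Rn7s2 (2.17, adjusted p = 6.50e-08), by edgeR on the TMM scale. On that scale 13.2% of all tested genes were higher. With library totals 3 of the 4 were higher, where 46.8% of all tested genes were. The summed level of the list was 54.5 to 55.6 CPM in libraries labelled JOSD2 KO and 10.7 to 15.2 CPM in WT. Its part in the tRNA values was not tested.

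The glycine tRNA mt-Tg had by far the largest decrease of the 37 genes. It had 4, 4 and 5 counts in libraries labelled JOSD2 KO, against 286, 253 and 320 counts in WT, which is about 3 read pairs in all in libraries labelled JOSD2 KO and 215 in WT. Relative to the mitochondrial total, the level in libraries labelled JOSD2 KO was 1.98% of that in WT (95% exact counting interval 0.405% to 5.86%, which covers counting error only). On the TMM scale it was 0.981% (0.201% to 2.91%), and edgeR called the gene lower in both fits, with adjusted p = 6.01e-08 on the TMM scale and 6.03e-08 relative to the mitochondrial total.

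The genes on either side of mt-Tg differed among themselves. Directly before it, mt-Co3, a subunit of complex IV whose mRNA ends at the base before mt-Tg, had 17766, 17597 and 17595 FPKM in libraries labelled JOSD2 KO, against 28907, 28103 and 27566 FPKM in WT. Its log2 fold change was -1.08 on the TMM scale and -0.07 relative to the mitochondrial total. Directly after mt-Tg, mt-Nd3 had 4290, 4226 and 4173 FPKM in libraries labelled JOSD2 KO, against 8702, 8268 and 8263 FPKM in WT. With -1.40 (SE 0.02, adjusted p = 8.79e-13, edgeR, TMM scale) it had the largest decrease of the 13 mRNAs. The arginine tRNA mt-Tr, which 1 base separates from mt-Nd3, had 91, 91 and 70 counts in libraries labelled JOSD2 KO, against 185, 185 and 185 counts in WT. It was called lower relative to the mitochondrial total at -0.64 (adjusted p = 0.0478, edgeR), a call lost when any one library was left out. The next gene, mt-Nd4l, a small subunit of complex I, stood at 0.06 relative to the mitochondrial total and did not pass (adjusted p = 0.0776, edgeR). The neighbours mt-Co3, mt-Nd3 and mt-Nd4l were singled out after their values were seen.

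**Figure D4:**
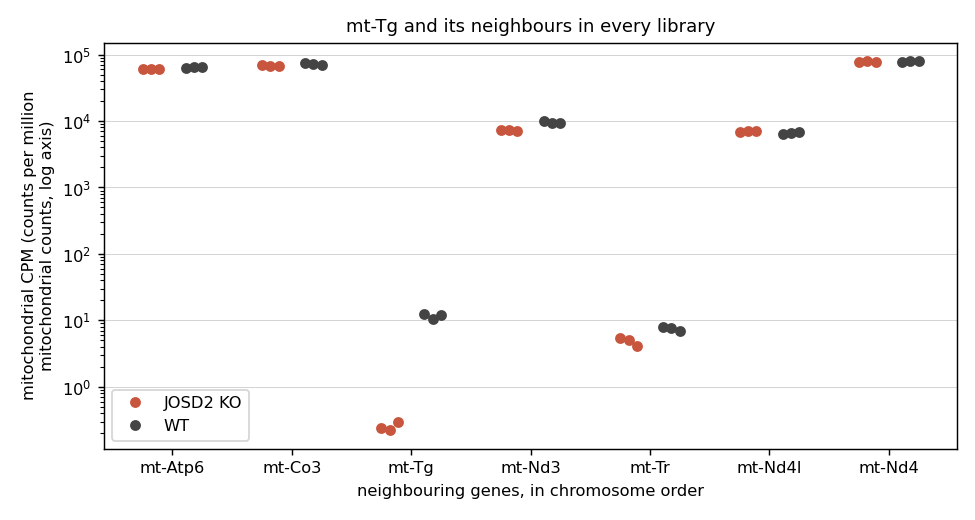
Level of mt-Tg and of its neighbours in every library, in mitochondrial CPM (log axis), in the order of the chromosome, with JOSD2 KO points left of WT points. Between mt-Co3 and mt-Nd4l, mt-Tg drops to 0.221 to 0.291 in libraries labelled JOSD2 KO against 10.7 to 12.4 in WT, while mt-Nd3 and mt-Tr are lower by less.

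Part of the mitochondrial genome is also present in nuclear chromosomes as near-identical copies, and a read from either place can be counted for the other. At least 97% identity to a nuclear transcript was found for 8 of the 13 mRNAs, for 0 rRNAs and for 1 tRNA. Some matches were partial, covering 63.6% of mt-Nd4, 21.1% of mt-Atp8 and 53.7% of the tRNA mt-Tt. The transcript that matched mt-Tt was not among the listed copies. Together, 11 listed nuclear copies took 7.11% of all counts in libraries labelled JOSD2 KO and 10.8% in WT, and with them the mitochondrial share was 31.0% in libraries labelled JOSD2 KO and 47.0% in WT. Of the 11 copies 10 were called lower on the TMM scale, with a median log2 fold change of -0.95, where 11.5% of all tested genes were lower. With library totals 9 of the copies were lower, where 3.81% of all tested genes were. In the 7 pairs of a gene and its copy that were compared, both members were called lower on the TMM scale. Gm28438, the copy of mt-Nd3, stood at -1.35 beside -1.40, and Gm28437, the copy of mt-Co3, stood at -1.05 beside -1.08. The copy held 50.2% of the summed counts of mt-Nd3 and Gm28438 in libraries labelled JOSD2 KO and 49.2% in WT. Summed with its copy, mt-Nd3 changed by -1.37 and mt-Co3 by -1.07. Counts of these mRNAs one by one are therefore uncertain. No such copy was found for the rRNAs, but only annotated nuclear transcripts were searched, so an unannotated copy could not be found.

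The copies Gm28437 and Gm28438 lie side by side on chromosome 1 (GRCm38). The stretch between them that corresponds to mt-Tg, chr1:24613120-24613188, is 69 bases long and holds 0 annotated genes, so reads placed there would be counted for none. The stretch that corresponds to mt-Tr, chr1:24612701-24612774, likewise holds 0 annotated genes. Between mt-Nd3 and Gm28438 the transcripts differ by the substitution T3C, with positions counted from 1 at the first base of mt-Nd3, so that position 3 is the last base of the start codon in capitals. Which base the reads of each group carried was not analysed here, and the part of read placement in the mt-Tg counts was not tested.

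Few nuclear genes that build and run the mitochondrial genetic system passed the test on the TMM scale. Among 30 tested genes of mitochondrial transcription and RNA processing, 3 were called higher and 1 lower on the TMM scale, with a median log2 fold change of -0.07. On that scale 13.2% of all tested genes were higher and 11.5% lower. With library totals 18 of the 30 were higher and none lower, where 46.8% of all tested genes were higher. The higher ones on the TMM scale were Fastk (0.22, adjusted p = 0.0171), which stabilises mt-Nd6 mRNA, Angel2 (0.24, adjusted p = 0.0305) and the helicase gene Supv3l1 (0.44, adjusted p = 0.0497), by edgeR. The lower one was Rexo2, an oligoribonuclease gene, at -0.25 (adjusted p = 0.00261, edgeR), which with library totals turned to 0.16. The polymerase gene Polrmt (0.19, adjusted p = 0.333), the packaging factor gene Tfam (-0.08, adjusted p = 0.653) and Lrpprc, whose product stabilises mitochondrial mRNAs (0.12, adjusted p = 0.452), did not pass the edgeR test.

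For replication and upkeep of mitochondrial DNA, 2 of 17 genes were higher and 1 was lower on the TMM scale, and with library totals 13 were higher and none lower. Of all tested genes, 13.2% were higher and 11.5% lower on the TMM scale, and 46.8% and 3.81% with library totals. Those called on the TMM scale were the DNA polymerase gene Polg (0.30), the exonuclease gene Mgme1 (0.58) and the ADP/ATP carrier gene Slc25a4 (-0.14, which turned to 0.27 with library totals). Among 16 regulators of mitochondrial biogenesis, 1 was higher, Pparg (0.47, adjusted p = 0.0469, edgeR), a regulator of fat cells, and none was lower, while with library totals 12 were higher and none lower. The coactivator gene Ppargc1a did not pass (-0.32, adjusted p = 0.578, edgeR).

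Of 22 genes for mitochondrial tRNA synthetases and related enzymes, 2 were higher and 1 lower on the TMM scale, and with library totals 15 were higher and none lower. The shares called higher and lower among all tested genes were 13.2% and 11.5% on the TMM scale, and 46.8% and 3.81% with library totals. Lars2, which charges leucine tRNAs, had 146 ± 3.76 CPM in libraries labelled JOSD2 KO and 62.8 ± 2.64 CPM in WT (SD, n = 3 each; log2 fold change 1.22, adjusted p = 4.92e-09, edgeR). Iars2, for isoleucine, stood at 0.36, and Gars, which charges glycine tRNAs in both cytosol and mitochondria, fell with 43.0 ± 1.70 CPM in libraries labelled JOSD2 KO and 62.6 ± 2.53 CPM in WT (-0.54, adjusted p = 2.63e-05, edgeR). With library totals Gars was at -0.13 (adjusted p = 0.0635, edgeR).

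The list of nuclear-encoded subunits covered complexes I, III, IV and V and also complex II, which has no mitochondrially encoded subunit. Of these, 19 of 84 tested subunits were lower and none higher on the TMM scale, with a median of -0.10, where 11.5% of all tested genes were lower and 13.2% higher. With library totals none was lower and 64 were higher, where 46.8% of all tested genes were higher and 3.81% lower. The 4 with the smallest p were ATP synthase subunit genes, Atp5pb (-0.28), Atp5o (-0.27), Atp5a1 (-0.12) and Atp5c1 (-0.20), each of which turned positive with library totals. Of 78 mitochondrial ribosomal protein genes, 5 were lower and none higher, with a median of -0.06, against 48 higher with library totals. Over the nuclear lists together, 8 of 248 listed genes were higher and 27 lower on the TMM scale, against 13.2% and 11.5% of all tested genes. The 8 became 5 without WT replicate 1 or JOSD2 KO replicate 3, 4 without JOSD2 KO replicate 2 and 3 without JOSD2 KO replicate 1, and the 27 became 16 without JOSD2 KO replicate 1 or JOSD2 KO replicate 3.

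**Figure D5:**
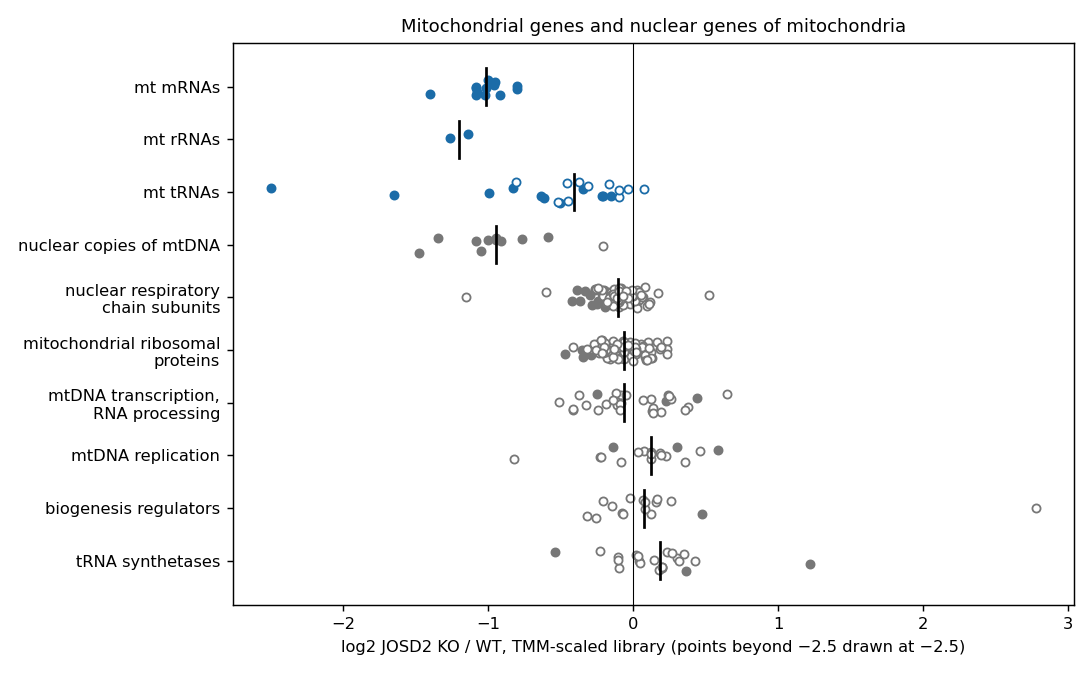
Log2 fold change, JOSD2 KO over WT on the TMM-scaled library, of each tested gene of the mitochondrial classes (blue) and of nuclear lists (grey), with the list median as a black line; filled points passed an edgeR adjusted p of 0.05. The mitochondrial mRNAs and the nuclear copies lie near -1, the tRNAs have a median of -0.41, and the nuclear lists have medians between -0.10 and 0.18, all of which are above 0 with library totals.

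Markers of other cells moved beside the mitochondrial genes. They are counted here on the TMM scale, where 13.2% of all tested genes were called higher and 11.5% lower. All 6 endothelial markers were higher, with a summed level of 700 to 710 CPM in libraries labelled JOSD2 KO and 390 to 398 CPM in WT. Of 6 macrophage markers 5 were lower, with sums of 273 to 278 CPM in libraries labelled JOSD2 KO and 567 to 581 CPM in WT. White fat had 5 of 8 markers higher, with sums of 841 to 856 CPM in libraries labelled JOSD2 KO and 618 to 647 CPM in WT. Brown fat, a tissue rich in mitochondria, had 2 of 6 tested markers higher, with sums of 182 to 195 CPM in libraries labelled JOSD2 KO and 89.8 to 96.4 CPM in WT, most of which was Dio2. Its defining marker Ucp1 had 135 to 163 unscaled counts in libraries labelled JOSD2 KO and 107 to 144 in WT. The TMM-scaled library sizes were 80395876 to 87281846 in libraries labelled JOSD2 KO and 55159003 to 64413749 in WT. Unscaled counts of the groups therefore cannot be compared directly. Cardiac and skeletal muscle, also rich in mitochondria, had 2 of 14 tested markers higher and 4 lower, with sums of 71.5 to 73.4 CPM in libraries labelled JOSD2 KO and 75.7 to 88.1 CPM in WT. The heart marker Myh6 had 242 to 332 counts, likewise unscaled, in libraries labelled JOSD2 KO and 133 to 166 in WT. Platelet and red cell markers fell in 7 of 9, with sums of 305.5 to 305.9 CPM in libraries labelled JOSD2 KO and 443.5 to 450.5 CPM in WT. Fibroblast markers fell in 5 of 6 and rose in 1, with sums of 4752 to 4790 CPM in libraries labelled JOSD2 KO and 5438 to 5455 CPM in WT. Of the kidney markers 1 of 4 tested, Aqp2, fell, with sums of 0.527 to 1.16 CPM in libraries labelled JOSD2 KO and 16.6 to 17.6 CPM in WT, and the defining marker Umod was at 0 in 3 of 3 libraries labelled JOSD2 KO and had 5 counts or fewer in each WT library. With library totals 5 fibroblast markers were higher and none lower, 1 macrophage marker was higher and 4 lower, and 3 platelet and red cell markers were lower and none higher. The cardiac and skeletal muscle markers turned to 4 higher and 2 lower, with a median log2 fold change of 0.22 against -0.19 on the TMM scale. The counts of endothelial, white fat, brown fat and kidney markers were the same on both scales. With library totals 46.8% of all tested genes were higher and 3.81% lower. The part of these cell types in the mitochondrial share was not tested.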

How the data were processed

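Polyadenylated RNA from 6 aorta samples was sequenced as read pairs, per the labels' protocols. Bowtie 0.12.2, HISAT2 2.0 and the build mm8 are named, without roles, in the submitters' processing notes. For the counting tool, annotation and strand use, the sources used here give nothing. Per the file headers, the deposited table holds counts and FPKM made by the authors. Because low values peak at multiples of 4, they were treated as estimated counts deposited by the authors as whole numbers, and rounding changed none. Coordinates are GRCm38, as in the table and GENCODE M21.

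The table was fitted with edgeR 4.0.16 (R 4.3.3) by the quasi-likelihood test after filterByExpr, once with TMM factors and once with the summed mitochondrial counts as library size. Benjamini-Hochberg adjustment ran over 20132 genes, and an adjusted p under 0.05 was called. Shares were compared by exact two-sided permutation tests. Interval bounds cover counting error only. BLAST+ 2.17.0 compared mitochondrial genes with nuclear transcripts. The fitting steps were tested on simulated data. Alternatives included DESeq2 1.42.0 and limma 3.58.1 on log2(FPKM + 1).

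The members and lists were chosen with earlier results of these data known. Per-library values were given for both rRNAs, the mRNA with the highest mean FPKM of each complex, mt-Nd6, up to 4 tRNAs with the smallest p in each direction relative to the mitochondrial total, and the 3 most abundant tRNAs. Up to 4 genes of each nuclear list were named by smallest p. Other genes were named after their values were seen. Equal replicate numbers were not treated as pairs. Deviations of same-numbered libraries correlated at -0.0008, -0.0288 and -0.0181, and those of differently numbered libraries at -0.0125 to 0.0308. The libraries of a group differed little, so these correlations could miss a pairing.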

Additional observations from a re-analysis of the deposited data

How the results depend on the processing

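Under all alternatives of the fit to the whole table (DESeq2, its size factors, library totals, other filters, counts divided by 4, limma on FPKM, each library left out), the 13 mRNAs and both rRNAs stayed lower. The mitochondrial share of the library stayed lower in libraries labelled JOSD2 KO with nuclear copies added and by summed FPKM, where it was 45.2% in libraries labelled JOSD2 KO and 54.0% in WT. The tRNAs depended on the scaling: none was higher on the TMM scale, against 5 with library totals and 7 with limma on log2(FPKM + 1) or log2(FPKM + 0.1). Lower tRNAs numbered 11, and 6 without the filter, 5 with library totals, 6 with either limma fit, and 6 to 9 with a library left out. Of all tested genes, 13.2% were higher and 11.5% lower on the TMM scale, 6.92% and 4.78% without the filter, and 46.8% and 3.81% with library totals. These shares were 46.9% and 4.31%, or 46.3% and 4.3%, with the limma fits. With a library left out, 9.25% to 11.3% were higher and 8.43% to 9.55% lower. With library totals the sign turned for 10 tRNAs, of which mt-Tl1 (0.062), mt-Ta (0.19), mt-Tn (0.20), mt-Tc (0.24), mt-Ty (0.31) and mt-Tp (0.25) passed the test in at least 1 of the 2 fits, and mt-Tv, mt-Tw, mt-Td and mt-Ts2 (0.37) in neither. Limma with a pseudocount of 1 gave 0.061, 0.19, 0.20, 0.24, 0.31 and 0.25 for the same 6 genes and 0.35 for mt-Ts2, which passed there, and with 0.1 it gave 0.061, 0.19, 0.20, 0.24, 0.31 and 0.25, and 0.38 for mt-Ts2. The median of all tested genes was 0.41 with library totals, 0.20 with limma and a pseudocount of 1, and 0.35 with 0.1. Relative to the mitochondrial total, 2 tRNAs were lower, and 1 (mt-Tg) without the filter, with counts divided by 4 or with any library left out. Of all tested genes, 1.42% were lower there, and 0.727% without the filter, 1.86% with counts divided by 4 and 1.16% to 1.46% with a library left out. The mRNA share of the mitochondrial total differed by 0.13 percentage points, JOSD2 KO minus WT, and by -0.69 by summed FPKM. Nuclear genes of mitochondria numbered 8 higher and 27 lower, against 14 and 50 with DESeq2, 170 and 0 with library totals, 169 and 1, or 168 and 1, with the limma fits, 16 lower without the filter, and 3 to 7 higher and 16 to 24 lower with a library left out. DESeq2 called 17.4% of all tested genes higher and 16.4% lower, and the shares for the other fits are those given above beside the tRNAs. Where no cause is stated, the cause was not tested. For tRNAs under 200 counts, depth limits the comparison.

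With the replicate number as a block, lower tRNAs numbered 7 on the TMM scale and 1 relative to the mitochondrial total, and 13 mRNAs and 2 rRNAs stayed lower on the TMM scale. Of all tested genes, 10.4% were lower with the block on the TMM scale and 1.31% relative to the mitochondrial total. The labels give no pairing by these numbers, and the correlations of same-numbered libraries showed none but could not exclude it.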

Other observations

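Nnt, the nuclear gene for the nicotinamide nucleotide transhydrogenase of the inner mitochondrial membrane, was on none of the lists and was chosen after its values were seen. Its main entry (ENSMUSG00000025453) had 3496, 4152 and 3825 counts in libraries labelled JOSD2 KO, against 659, 336 and 1209 counts in WT libraries. Every library labelled JOSD2 KO lay above every WT library, with a log2 fold change of 1.90 (SE 0.29, adjusted p = 0.000621, edgeR on the TMM scale) and of 2.31 with library totals. A second Nnt entry in the table (ENSMUSG00000116207) had 0, 0 and 0 counts in libraries labelled JOSD2 KO, against 90, 510 and 50 counts in WT. Entries of one symbol may share reads, so each is uncertain. The labels give no strain or substrain, and whether the groups differ in it was not tested.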
